A study of Mus musculus with 4 samples.

Results

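Meiotic crossovers join homologous chromosomes, and most of them depend on a small group of proteins named ZMM after their yeast counterparts. ZMM proteins bind and stabilise the joined DNA molecules that arise when broken chromosomes are repaired from the homologue, and a MutL complex that contains MLH3 later cuts the ones that become crossovers. The RING proteins RNF212 and HEI10 (encoded by *Ccnb1ip1*) and the cyclin-like CNTD1 narrow many candidate sites down to the few that mature. In male mice this machinery works in spermatocytes, during the zygotene and pachytene stages of meiotic prophase I. The 9 genes described here, chosen by symbol from a list, encode MutSγ (*Msh4*, *Msh5*), the proteins SHOC1 and TEX11, the helicase HFM1, the regulators *Rnf212*, *Ccnb1ip1* and *Cntd1*, and the MutL subunit *Mlh3*. All 9 were found once each among the 32285 genes counted.

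The data were single-cell RNA-seq (scRNA-seq) libraries of testes at postnatal day 15 (P15), when the first wave of germ cells has reached prophase I. There were 2 wild-type and 2 *Meioc*-null C57BL/6N pups, 1 testis per pup, and each batch paired littermates of the 2 genotypes. The null allele was *Meioc* tm1.1Dpc. The MEIOC protein works with YTHDC2 on messenger RNA in germ cells that enter meiosis. Mice of both genotypes, controls included, also carried 1 *Hspa2* tm1Dix allele and 2 copies of a *ROSA26-tdTomato* reporter whose stop cassette was intact. The 3′ tags of *Meioc* are counted in both genotypes and do not check the labels.

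The libraries held between 158291903 and 190455307 UMIs (unique molecular identifiers, 1 per captured transcript) in 11986 to 16486 barcodes. After the filters 5644 to 7505 cells remained per library, with medians of 11701 to 14420 UMIs. Of all 29505 barcode sequences left before doublets were removed, 87 occurred in more than 1 library. Germ cells were grouped into 11 clusters that formed a single order, which took in 20151 cells. A further 953 cells of low UMI count, placed with the germ cells, stayed outside the order. Macrophage markers summed to 458 and 2551 CPM in this low-UMI group of the *Meioc*-null libraries, against 17.8 and 71.7 CPM in wild type. The group therefore need not hold germ cells only. None of the 9 genes had a part in making the clusters. Levels are given as CPM, the UMIs of a gene per 1000000 UMIs summed over the cells of 1 cluster and library. In such sums fewer transcript molecules per cell and fewer cells with the transcript cannot be told apart.

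Cluster 1 had 6 of 7 markers of undifferentiated spermatogonia in at least 25% of its wild-type cells. Clusters 2 to 6 had 6 or 7 of 7 markers of differentiating spermatogonia, although *Dlk1*, a gene of the Leydig cell list, was among the 10 leading genes of cluster 2. Clusters 7 to 10 had 6 to 8 of 8 markers of early spermatocytes. Cluster 11 also had 7 of those 8, but *Ldhc*, a marker of pachytene spermatocytes, was among its leading genes and no early marker was, so it is given no name. *Stra8*, the gene that marks the start of meiosis, was highest in cluster 7, at 2103 and 2024 CPM in the wild-type libraries. Cluster 11 held 255 and 293 wild-type cells and 0 *Meioc*-null cells, which allows a share of ordered germ cells of up to 0.0593% and 0.0615% in the *Meioc*-null libraries. These limits cover counting error only, and *Meioc*-null cells could only be placed in clusters made from wild-type cells. The study, with its own clusters, assigned some *Meioc*-null cells to pachytene and also described a cluster almost only of *Meioc*-null cells. Cluster 10 held 274 and 694 wild-type cells but 65 and 96 *Meioc*-null cells, so its *Meioc*-null values rest on the fewest cells.

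The RefSeq promoter table of build GRCm38.p6 held 7 of the 9 genes. *Shoc1* and *Tex11* had no entry under these symbols. For *Mlh3* the table held 2 starts, and the first listed is shown. Windows of 120 bases before to 30 bases after the start are printed for 4 of them, because *Msh5* and *Hfm1* rose and peaked in the same cluster, whereas *Mlh3* and *Cntd1*, the genes described last, were highest in cluster 11, as was *Ccnb1ip1*. Capitals mark matches on either strand to the core of the E2F motif (TCCCGC), the E-box (CACGTG) or the motif CNCCTCAG described for STRA8.
Msh5, minus strand, chr17:35046593-35046742: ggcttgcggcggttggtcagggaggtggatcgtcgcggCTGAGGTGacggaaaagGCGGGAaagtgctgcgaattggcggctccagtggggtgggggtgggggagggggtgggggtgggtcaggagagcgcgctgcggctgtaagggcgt
Hfm1, minus strand, chr5:106925861-106926010: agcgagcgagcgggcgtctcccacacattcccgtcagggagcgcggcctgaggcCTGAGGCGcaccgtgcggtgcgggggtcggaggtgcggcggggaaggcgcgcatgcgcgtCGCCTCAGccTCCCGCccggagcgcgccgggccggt
Mlh3, minus strand, chr12:85270570-85270719: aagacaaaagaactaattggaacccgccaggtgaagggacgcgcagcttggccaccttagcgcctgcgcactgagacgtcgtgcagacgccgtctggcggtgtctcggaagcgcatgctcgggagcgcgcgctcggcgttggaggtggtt
Cntd1, plus strand, chr11:101279083-101279232: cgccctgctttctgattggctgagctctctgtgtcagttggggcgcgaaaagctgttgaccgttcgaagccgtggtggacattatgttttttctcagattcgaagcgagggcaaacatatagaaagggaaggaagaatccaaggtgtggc
Over the whole 300 bases held for each gene, the E2F core was found in 4 of the 7 genes (*Msh5*, *Hfm1*, *Rnf212* and *Ccnb1ip1*) and in 20.0% of all 32851 promoters searched. The STRA8 motif was found in *Msh5*, once, and in *Hfm1*, at 2 places, and in 7.94% of all promoters. The E-box was found in *Rnf212* and *Cntd1* and in 7.15% of all promoters, and that of *Cntd1* lies before the printed window. None of these matches overlapped each other, and *Msh4* and *Mlh3* held none of the 3 motifs in these bases. The bases held for *Msh4* (chr3:153904842-153905141), *Hfm1* (chr5:106925841-106926140) and *Ccnb1ip1* (chr14:50795679-50795978) lay wholly inside the gene spans given below. They thus did not reach the outer end of these genes. A match is a run of letters and does not show that a factor bound there.

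In wild type the 9 genes reached 50% of their highest level in clusters spread over nearly the whole order. From cluster 6 to cluster 7, *Tex11* and *Mlh3* fell and the other genes rose in both libraries. *Cntd1*, for example, went from 19.1 and 11.7 CPM to 41.2 and 30.1 CPM. *Tex11* was the earliest to rise, reaching 50% of its highest level in cluster 4 in both libraries. *Ccnb1ip1* and *Shoc1* reached 50% in cluster 7, *Msh5* and *Hfm1* in cluster 8, *Msh4* and *Mlh3* in cluster 9, and *Cntd1* in cluster 11. *Rnf212* stood at over 50% of its highest level in cluster 1 already, then fell and rose again. By CPM the highest cluster was 5 for *Tex11*, 8 for *Shoc1*, *Msh5* and *Hfm1*, 9 for *Rnf212* and *Msh4*, and 11 for *Ccnb1ip1*, *Mlh3* and *Cntd1*. Both wild-type libraries gave the same highest cluster for each gene. CPM is a share of the UMIs counted, and cells of cluster 11 were deeper (medians 44684 and 35828 UMIs) than those of cluster 8 (10278 and 9808) or 9 (10105 and 9661). Per cell, *Hfm1*, *Msh4* and *Rnf212* had more UMIs in cluster 11 than in the cluster named here. For *Msh4* these were 536 and 627 UMIs in 255 and 293 cells, against 140 and 349 UMIs in 237 and 632 cells. Taken alone, wild-type library 2 put *Msh4* at 50% in cluster 8, and library 1 put *Cntd1* at 50% in cluster 10. This order is a description of 2 libraries and was not tested.

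**Figure D1:**
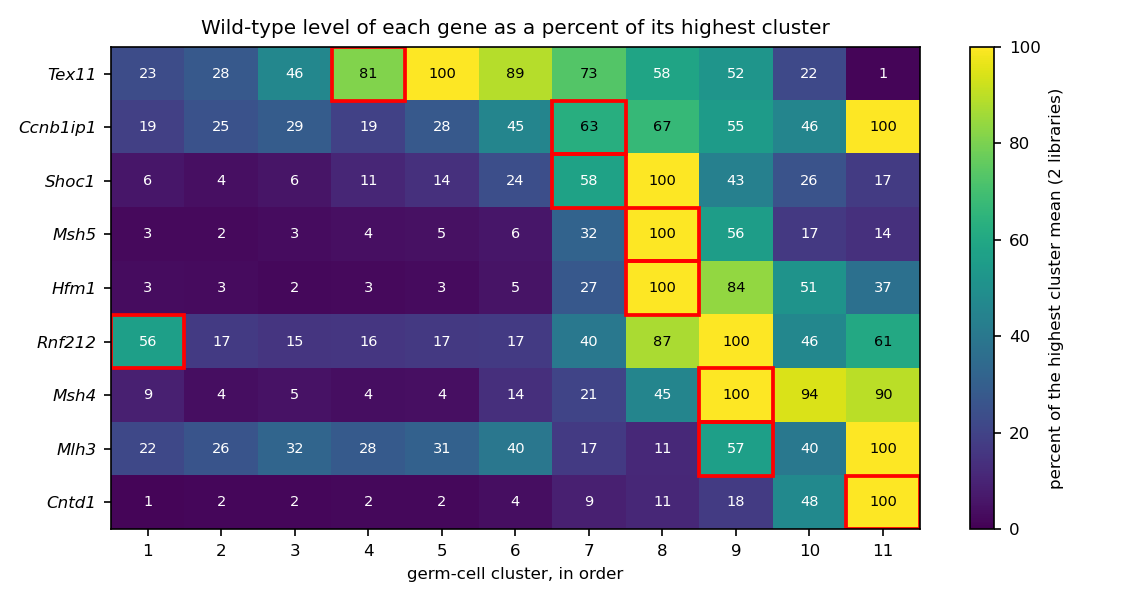
Mean wild-type level (2 libraries) of each gene in the 11 ordered germ-cell clusters, as a percent of its highest cluster, with a red frame at the first cluster where both libraries reached 50%. The bright cells move from cluster 5 for *Tex11* to cluster 8 for *Shoc1*, *Msh5* and *Hfm1* and to cluster 11 for *Ccnb1ip1*, *Mlh3* and *Cntd1*, and *Rnf212* and *Mlh3* each have an early and a late part.

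With a lower bar, 10% of the highest level, 4 genes (*Tex11*, *Ccnb1ip1*, *Mlh3* and *Rnf212*) were above it from cluster 1, followed by *Shoc1* in cluster 5, *Msh4* in cluster 6, *Msh5* and *Hfm1* in cluster 7 and *Cntd1* in cluster 9. *Cntd1* was at 10% from cluster 7 in wild-type library 1 alone and from cluster 9 in library 2 alone, and *Shoc1* from cluster 4 in library 1 alone. Somatic cells are given beside such low levels, although a level there need not be background. In peritubular myoid cells, the contractile cells around the tubules, wild-type *Cntd1* stood at 4.86 and 2.27 CPM and *Hfm1* at 4.36 and 3.34 CPM. In Sertoli cells *Cntd1* stood at 8.28 and 6.70 CPM and *Hfm1* at 7.77 and 8.42 CPM, close to their levels in the earliest germ-cell clusters. *Mlh3* stood at 18.3 and 20.6 CPM in myoid cells, within the 11.5 to 49.3 CPM it had in single libraries of clusters 1 to 8. In the *Meioc*-null libraries *Cntd1*, *Hfm1* and *Msh4* lay below both wild-type libraries in both somatic classes. In Sertoli cells *Msh5* also lay below, and *Tex11* and *Shoc1* lay above. The null levels of *Cntd1* in Sertoli cells were 1.29 and 3.08 CPM.

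At equal depth, wild-type cells of clusters 8 and 9 had more of the 9 genes counted per cell than those of other clusters. Cells were thinned to 5000 UMIs each, which left out at most 49 cells of any ordered cluster and library, and the number of the 9 genes with at least 1 UMI was counted per cell. It was 0.805 and 0.748 in cluster 1 of the 2 wild-type libraries, and 2.14 and 2.23 in cluster 7. Cluster 8 followed with 3.05 and 3.30, and cluster 9 with 3.27 and 3.15. It was 2.45 and 2.46 in cluster 10 and 2.75 and 2.80 in cluster 11. In myoid cells it was 0.205 and 0.151, and in Sertoli cells 0.294 and 0.205, although 311 of 447 and 177 of 299 Sertoli cells were too shallow to be used. The median depth before thinning was 10278 and 9808 UMIs in cluster 8 and 9763 and 10068 in myoid cells. It was 28504 and 27666 in cluster 1 and 44684 and 35828 in cluster 11. Thinning took a larger share of the UMIs there, so the counts do not compare the whole RNA of a cell.

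In *Meioc*-null libraries the number of the genes per cell followed a similar course. It was 1.42 and 1.31 in cluster 6, against 1.64 and 1.49 in wild type, so that the null libraries lay below both wild-type libraries there. The count was 3.17 and 3.31 in cluster 8 and 2.88 and 3.09 in cluster 9 of the *Meioc*-null libraries, and the 2 genotypes overlapped in cluster 8 but not in cluster 9. In cluster 10 it was 2.20 and 2.08, below both wild-type libraries. These counts were not tested, since an exact permutation test of 2 against 2 libraries cannot give a p under 0.333.

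**Figure D2:**
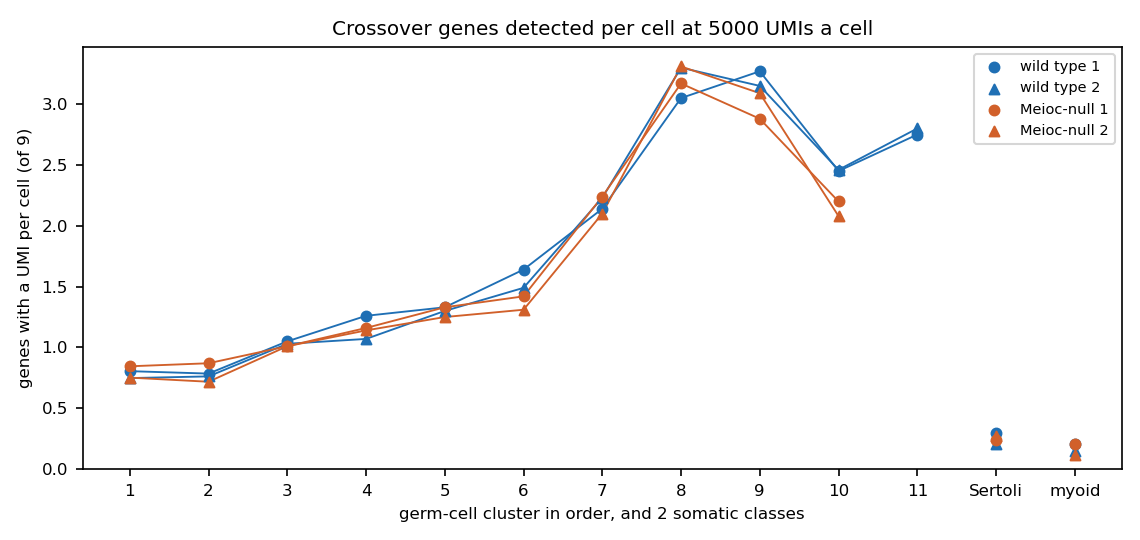
Mean number of the 9 crossover genes with at least 1 UMI per cell, after thinning each cell to 5000 UMIs, by ordered cluster and in 2 somatic classes, 1 point per library. The count climbs from under 1 in cluster 1 to above 3 in cluster 8 of all 4 libraries, and in cluster 10 the *Meioc*-null points (2.20 and 2.08) lie below the wild-type points (2.45 and 2.46).

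The comparison of genotypes asked at which stage the loss of *Meioc* changed these transcripts. UMIs were summed per library and cluster and tested with edgeR. A gene was called at a Benjamini-Hochberg adjusted p under 0.05 over all genes of the cluster and an absolute log2 fold change over 0.1. Log2 fold changes are wild type over *Meioc*-null throughout. All 9 genes passed the filter of 20 UMIs in each of the 10 clusters tested. In clusters 1 to 6, 0 of the 9 genes were called by edgeR, and DESeq2 also called 0. At an unadjusted p under 0.05 edgeR gave 1 gene in cluster 4 (*Cntd1*), 1 in cluster 5 (*Hfm1*) and 2 in cluster 6 (*Msh4* and *Hfm1*). Over all genes, 382 of 12504, 643 of 13320 and 1284 of 12438 passed this unadjusted bar in these 3 clusters. Over all tested genes the share called was 0% in clusters 1 and 5, 0.0272%, 0.0261% and 0.0240% in clusters 2, 3 and 4 respectively, and 1.19% in cluster 6.

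From cluster 7 the counts rose. In cluster 7, 1 of the 9 was called, against 13.0% of all 13549 genes tested (5.04% higher in wild type, 7.93% higher in *Meioc*-null). In cluster 8, 4 were called, 2 in each direction, against 29.7% of all genes (13.5% toward wild type, 16.2% toward *Meioc*-null). In cluster 9, 7 were called, 4 higher and 3 lower in wild type, against 43.2% of all genes (20.5% and 22.7%). In cluster 10, 7 were called, 5 higher and 2 lower in wild type, against 50.7% of all genes (25.5% and 25.1%). The median log2 fold change of the 9 genes was 0.18, 0.06, -0.11 and 0.51 in clusters 7, 8, 9 and 10, beside medians of -0.00, -0.04, -0.03 and 0.02 over all genes tested. The replicate numbers mark littermate pairs, and with this replicate block in the fit 1 gene was called in cluster 6 (*Hfm1*, against 6.01% of all genes), 4 in cluster 7 (26.2%), 6 in cluster 8 (44.9%) and 8 in cluster 9 (50.8%).

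**Figure D3:**
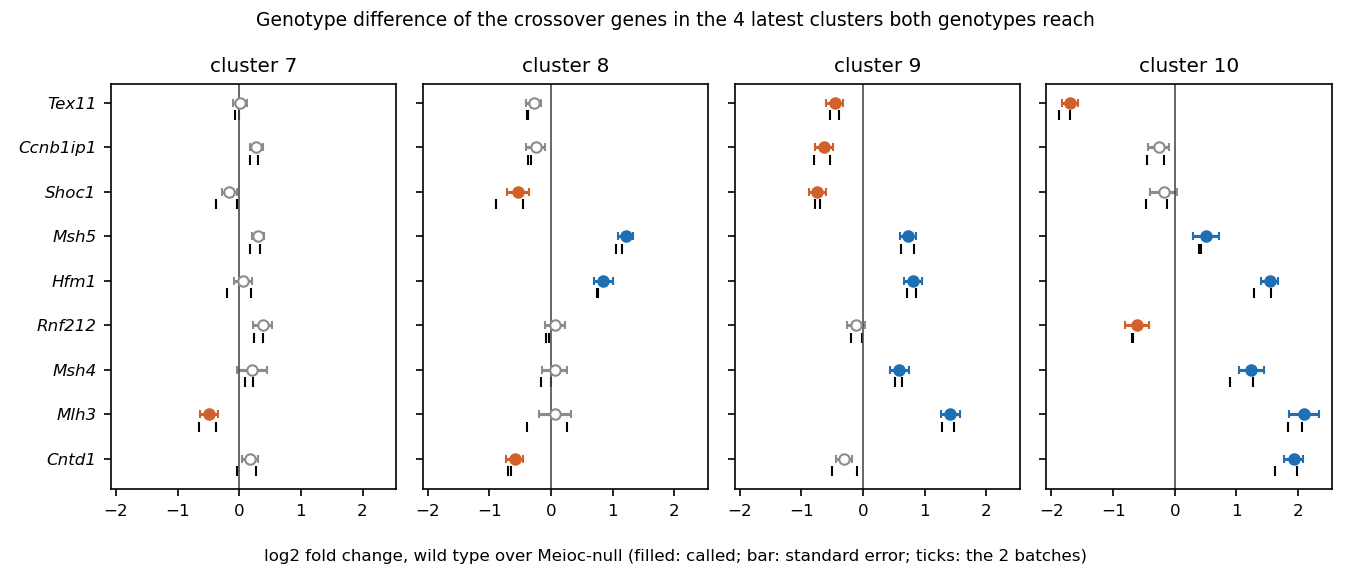
Log2 fold change (wild type over *Meioc*-null, edgeR) of each gene in clusters 7 to 10, with its standard error as a bar, filled where called (blue, higher in wild type; orange, higher in *Meioc*-null), and black ticks for the difference within each of the 2 batches. *Msh5* and *Hfm1* lie to the right from cluster 8, *Mlh3* from cluster 9, *Cntd1* crosses from left in cluster 8 to right in cluster 10, and *Tex11* reaches -1.70 in cluster 10.

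MutSγ is a heterodimer of MSH4 and MSH5 that encircles joined DNA molecules, and both of its transcripts were lower in *Meioc*-null cells of clusters 9 and 10. *Msh5* (ENSMUSG00000007035, GRCm38 chromosome 17, 35028605 to 35046745, minus strand) rose in wild type from 15.5 and 8.89 CPM in cluster 6 to 64.8 and 63.6 CPM in cluster 7 and to 198 and 204 CPM in cluster 8. In *Meioc*-null libraries it stood at 57.5 and 50.3 CPM in cluster 7 but at 89.0 and 97.1 CPM in cluster 8. Thus its rise began in both genotypes and went less far in the null, and the ranges of the genotypes were apart in clusters 7 to 10. The log2 fold change was 1.21 in cluster 8 (SE 0.12, adjusted p = 9.52e-06, edgeR) and 0.73 in cluster 9 (SE 0.13, adjusted p = 1.35e-05, edgeR). In cluster 10, where wild type had itself dropped to 35.9 and 31.4 CPM against 26.6 and 23.8 CPM, the log2 fold change of 0.51 (adjusted p = 0.0399, edgeR) was no longer called without any 1 of the 4 libraries (adjusted p 0.0913 to 0.18) or by DESeq2 (adjusted p = 0.170). Without doublet removal most cells of clusters 9 and 10 fell into 1 cluster, in which the calls of *Msh5* in both were lost (log2 fold change 0.30, adjusted p = 0.0560). The call in cluster 10 was also lost with the listed genes allowed in the clustering (0.236) and when cells were placed without the called genes (0.0618). In cluster 7 the log2 fold change of 0.30 was not called (adjusted p = 0.0819, edgeR) but was called with the replicate block (adjusted p = 0.0270) and when *Meioc*-null cells were placed without the called genes (adjusted p = 0.0204). With the wild-type level taken from the nearest wild-type cells of each null cell it was -0.05.

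*Msh4* (ENSMUSG00000005493, chromosome 3, 153857149 to 153906138, minus strand) came later than its partner. Wild-type libraries held 21.3 and 27.6 CPM in cluster 8, 52.7 and 54.6 CPM in cluster 9, 50.6 and 50.9 CPM in cluster 10 and 42.5 and 53.6 CPM in cluster 11. The values of clusters 9 and 11 overlapped, and those of cluster 10 lay within the range of cluster 11. *Meioc*-null libraries held 23.9 and 27.5 CPM in cluster 8, within the wild-type range of that cluster, and then 33.7 and 37.9 CPM in cluster 9 and 26.6 and 20.5 CPM in cluster 10. In cluster 6 the null libraries, at 5.46 and 4.29 CPM, lay below the wild-type libraries, at 7.80 and 6.72 CPM, without a call (log2 fold change 0.61, adjusted p = 0.483, edgeR). The level was lower without *Meioc* in clusters 9 and 10, with a log2 fold change of 0.59 in cluster 9 (SE 0.15, adjusted p = 0.00169, edgeR) and 1.24 in cluster 10 (SE 0.20, adjusted p = 2.85e-06, edgeR). The call in cluster 9 was lost without wild-type replicate 2 (adjusted p = 0.0566).

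HFM1 is a DNA helicase, the counterpart of yeast Mer3, that acts on joined molecules early. *Hfm1* (ENSMUSG00000043410, chromosome 5, 106840192 to 106926321, minus strand) followed *Msh5* closely in its start, from 20.3 and 18.9 CPM in cluster 6 to 90.7 and 117 CPM in cluster 7 and 354 and 406 CPM in cluster 8 of wild type. In *Meioc*-null libraries cluster 7 held 104 and 102 CPM, inside the wild-type range. Cluster 8 held 208 and 244 CPM, cluster 9 176 and 190 CPM against 291 and 347 CPM, and cluster 10 75.2 and 68.7 CPM against 184 and 205 CPM. *Hfm1* was lower in the null in each of clusters 8, 9 and 10, where no genotype ranges overlapped. The log2 fold change was 0.85 (SE 0.15, adjusted p = 6.41e-04, edgeR), 0.81 (SE 0.15, adjusted p = 3.33e-05, edgeR) and 1.54 (SE 0.14, adjusted p = 7.99e-11, edgeR) in clusters 8, 9 and 10. Before meiosis, in cluster 6, both *Meioc*-null libraries (14.6 and 12.7 CPM) already lay below both wild-type libraries, and with the replicate block this difference was called by edgeR, whereas without the block the log2 fold change of 0.56 was not (adjusted p = 0.195).

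SHOC1 and TEX11 are the counterparts of yeast Zip2 and Zip4, a scaffold on which other ZMM proteins gather, and their transcripts were higher in *Meioc*-null cells of clusters 9 and 10 (*Tex11*) and of clusters 8 and 9 (*Shoc1*). *Tex11* (ENSMUSG00000009670, chromosome X, 100838648 to 101059667, minus strand) was in wild type the one gene of the list whose highest cluster came before cluster 8. Wild-type libraries held 80.7 and 82.0 CPM in cluster 1, 350 and 349 CPM in cluster 5, 256 and 256 CPM in cluster 7, 76.8 and 76.9 CPM in cluster 10 and 5.15 and 4.02 CPM in cluster 11. The last value was close to that of wild-type myoid cells, 6.54 and 3.61 CPM. In *Meioc*-null libraries *Tex11* declined from 341 and 315 CPM in cluster 5 to 272 and 259 CPM in cluster 6, but the later part of the decline was not seen. It stood at 269 and 256 CPM in cluster 7, 260 and 274 CPM in cluster 8, 245 and 253 CPM in cluster 9 and 284 and 253 CPM in cluster 10, so its level in single libraries stayed between 245 and 284 CPM over 4 clusters. The log2 fold change was -0.46 in cluster 9 (SE 0.14, adjusted p = 0.00802, edgeR) and -1.70 in cluster 10 (SE 0.13, adjusted p = 3.51e-13, edgeR), and the call in cluster 9 was lost without wild-type replicate 1 (adjusted p = 0.112) or replicate 2 (adjusted p = 0.123). In cluster 8 the value of -0.28 was not called (adjusted p = 0.104, edgeR). By edgeR it was called with the replicate block (adjusted p = 0.00443), with the filter of a UMI in 25% of cells (0.0203) and without doublet removal (0.0451). It was also called without *Meioc*-null replicate 1, which left 1 null library. With fewer clusters it was called too (edgeR, adjusted p = 0.0327), but clusters 8 and 9 shared that fit.

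*Shoc1* (ENSMUSG00000038598, chromosome 4, 59043753 to 59138983, minus strand, named AI481877 in the annotation used) peaked in cluster 8 in both genotypes, but at different heights. Wild-type libraries held 49.5 and 56.0 CPM in cluster 7, 74.1 and 108 CPM in cluster 8, 39.5 and 39.6 CPM in cluster 9 and 21.7 and 25.2 CPM in cluster 10. *Meioc*-null libraries held 64.8 and 57.5 CPM in cluster 7, 139 and 150 CPM in cluster 8, 68.7 and 64.6 CPM in cluster 9 and 30.3 and 27.7 CPM in cluster 10. Both null libraries lay above both wild-type libraries in each of these 4 clusters, whereas *Msh5* and *Hfm1*, which peaked in the same cluster, lay below from cluster 8 on. The log2 fold change was -0.53 in cluster 8 (SE 0.18, adjusted p = 0.0481, edgeR) and -0.74 in cluster 9 (SE 0.14, adjusted p = 5.13e-05, edgeR), and -0.18 in cluster 10 did not pass (adjusted p = 0.511). The call in cluster 8 was lost without wild-type replicate 1 (adjusted p = 0.223), without *Meioc*-null replicate 2 (adjusted p = 0.0984), and by DESeq2 (adjusted p = 0.0708). It was also lost with DESeq2 size factors in edgeR (0.0591), with the listed genes allowed in the clustering (0.0702) and when cells were placed without the called genes (0.135).

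RNF212 and HEI10 are RING proteins with opposite roles, since RNF212 holds ZMM proteins at candidate sites and HEI10 promotes their removal. *Rnf212* (ENSMUSG00000055385, chromosome 5, 108729290 to 108774982, minus strand) had 2 phases in wild type. It stood at 27.2 and 28.3 CPM in cluster 1, between 6.12 and 10.7 CPM in clusters 2 to 6, and rose again to 40.7 and 45.7 CPM in cluster 8 and 49.7 and 49.0 CPM in cluster 9. *Meioc*-null libraries shared the early phase (24.7 and 29.0 CPM in cluster 1) and the rise (43.0 and 46.8 CPM in cluster 8, 53.3 ± 4.69 CPM (SD, n = 2) in cluster 9), with log2 fold changes of 0.06 and -0.11 that did not pass (adjusted p = 0.818 and 0.578, edgeR). In cluster 10 the null libraries held 38.5 and 36.0 CPM against 23.6 and 22.1 CPM in wild type, and the log2 fold change (-0.61, SE 0.20, adjusted p = 0.0113, edgeR) lost its call without wild-type replicate 2 (adjusted p = 0.0514), without *Meioc*-null replicate 2 (adjusted p = 0.0673), with no filter (adjusted p = 0.0809) and by DESeq2 (adjusted p = 0.101). In cluster 7 the difference was in the other direction, 20.5 and 18.9 CPM in wild type against 15.4 and 15.9 CPM. This value (log2 fold change 0.38) was not called (adjusted p = 0.132, edgeR) but was called with the replicate block (adjusted p = 0.0347) and when cells were placed without the called genes (adjusted p = 0.0289).

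*Ccnb1ip1* (ENSMUSG00000071470, chromosome 14, 50789248 to 50807732, minus strand) had its highest level in cluster 11. It shares its strand and part of its span with the RNA gene *Rpph1*, so reads of the 2 could be mixed in the counting. Wild-type libraries held 20.1 and 16.9 CPM in cluster 1, 63.0 and 59.0 CPM in cluster 7, 60.0 and 69.9 CPM in cluster 8, 47.4 and 59.2 CPM in cluster 9, 44.3 and 44.2 CPM in cluster 10 and 96.2 and 97.9 CPM in cluster 11. The levels of clusters 7 and 8 overlapped, and cluster 11 was above every other cluster in both libraries. *Meioc*-null libraries held 50.8 and 52.3 CPM in cluster 7, 75.8 and 91.1 CPM in cluster 8, 83.1 and 86.7 CPM in cluster 9 and 50.4 and 60.9 CPM in cluster 10. The value of cluster 9 was called (log2 fold change -0.63, SE 0.14, adjusted p = 3.43e-04, edgeR). With the replicate block, cluster 7 (0.29, adjusted p = 0.0357, higher in wild type) and cluster 8 (-0.26, adjusted p = 0.0479, higher in *Meioc*-null) were called as well by edgeR. Other alternatives also gave edgeR calls, in the same directions. In cluster 7 this was the placing of cells without the called genes (adjusted p = 0.0202). In cluster 8 these were leaving out *Meioc*-null replicate 1, and fewer clusters (0.0262), where clusters 8 and 9 shared a fit. In cluster 10 the value was -0.26 (adjusted p = 0.186). It was called on leaving out *Meioc*-null replicate 1, with the listed genes allowed in the clustering (0.00504) and with the placing of cells without the called genes (0.0238). Without doublet removal (1.05e-04) clusters 9 and 10 shared a fit.

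CNTD1 and MLH3 act last, when sites designated as crossovers are fixed and cut, and in cluster 10 these genes had the largest fitted differences of the 9, although with the nearest wild-type cells *Hfm1* was ahead of *Cntd1*. *Cntd1* (ENSMUSG00000078653, chromosome 11, 101279012 to 101296317, plus strand) climbed in wild type from 48.5 and 41.8 CPM in cluster 8 to 78.7 and 64.8 CPM in cluster 9, 206 and 185 CPM in cluster 10 and 372 and 449 CPM in cluster 11. The level in cluster 11 was 50.5 times that in cluster 1 in wild-type library 1 and 130 times in library 2, where the cluster 1 levels (7.35 and 3.45 CPM) were no higher than those of Sertoli cells (8.28 and 6.70 CPM). In *Meioc*-null libraries it stood at 79.6 and 66.3 CPM in cluster 8 and 84.2 and 91.9 CPM in cluster 9, above both wild-type libraries each time, and then at 66.0 and 46.0 CPM in cluster 10, below both. Its direction therefore turned along the order. The log2 fold change was -0.59 in cluster 8 (SE 0.14, adjusted p = 0.00455, edgeR), -0.31 in cluster 9 (adjusted p = 0.0558, edgeR) and 1.93 in cluster 10 (SE 0.15, adjusted p = 1.03e-12, edgeR). In cluster 9 *Cntd1* was called by edgeR, higher in *Meioc*-null, with the replicate block (adjusted p = 0.0165) and with the filter of a UMI in 25% of cells (0.0295). It was also called with the listed genes allowed in the clustering (8.81e-05), when cells were placed without the called genes (0.00603), and without *Meioc*-null replicate 1. With fewer clusters it was called too (edgeR, adjusted p = 0.0150), but clusters 8 and 9 shared that fit. The call in cluster 8 was lost without wild-type replicate 2 (adjusted p = 0.0614) and when cells were placed without the called genes (adjusted p = 0.0512). When doublets were kept, most cells of clusters 9 and 10 fell into 1 cluster, in which *Cntd1* was higher in wild type (log2 fold change 0.45).

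*Mlh3* (ENSMUSG00000021245, chromosome 12, 85234520 to 85270599, minus strand) dipped in the middle of the order, in cluster 8, to a level no higher than that of wild-type myoid cells (18.3 and 20.6 CPM). Wild-type libraries held 49.3 and 39.5 CPM in cluster 6, 18.7 and 19.6 CPM in cluster 7, 11.5 and 13.9 CPM in cluster 8, 67.0 and 59.8 CPM in cluster 9, 45.5 and 44.0 CPM in cluster 10 and 109 and 114 CPM in cluster 11. *Meioc*-null libraries went into the dip more slowly, with 29.8 and 25.7 CPM in cluster 7, reached 15.3 and 11.4 CPM in cluster 8, and then held 23.3 and 23.8 CPM in cluster 9 and 10.1 and 11.6 CPM in cluster 10, the last also no higher than in *Meioc*-null myoid cells (21.5 and 14.4 CPM). The second rise of *Mlh3* was thus the part of its course most reduced in the null. The log2 fold change was -0.49 in cluster 7 (SE 0.14, adjusted p = 0.0341, edgeR), 0.06 in cluster 8 (adjusted p = 0.887), 1.42 in cluster 9 (SE 0.16, adjusted p = 1.21e-09, edgeR) and 2.10 in cluster 10 (SE 0.24, adjusted p = 5.30e-09, edgeR). The values of clusters 9 and 10 were called under every alternative that gave a test, although without doublet removal a shared fit stood for both. That of cluster 7 was lost without wild-type replicate 1 (adjusted p = 0.165), without *Meioc*-null replicate 1 (0.148) or 2 (0.0774), and by DESeq2 (0.157).

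**Figure D4:**
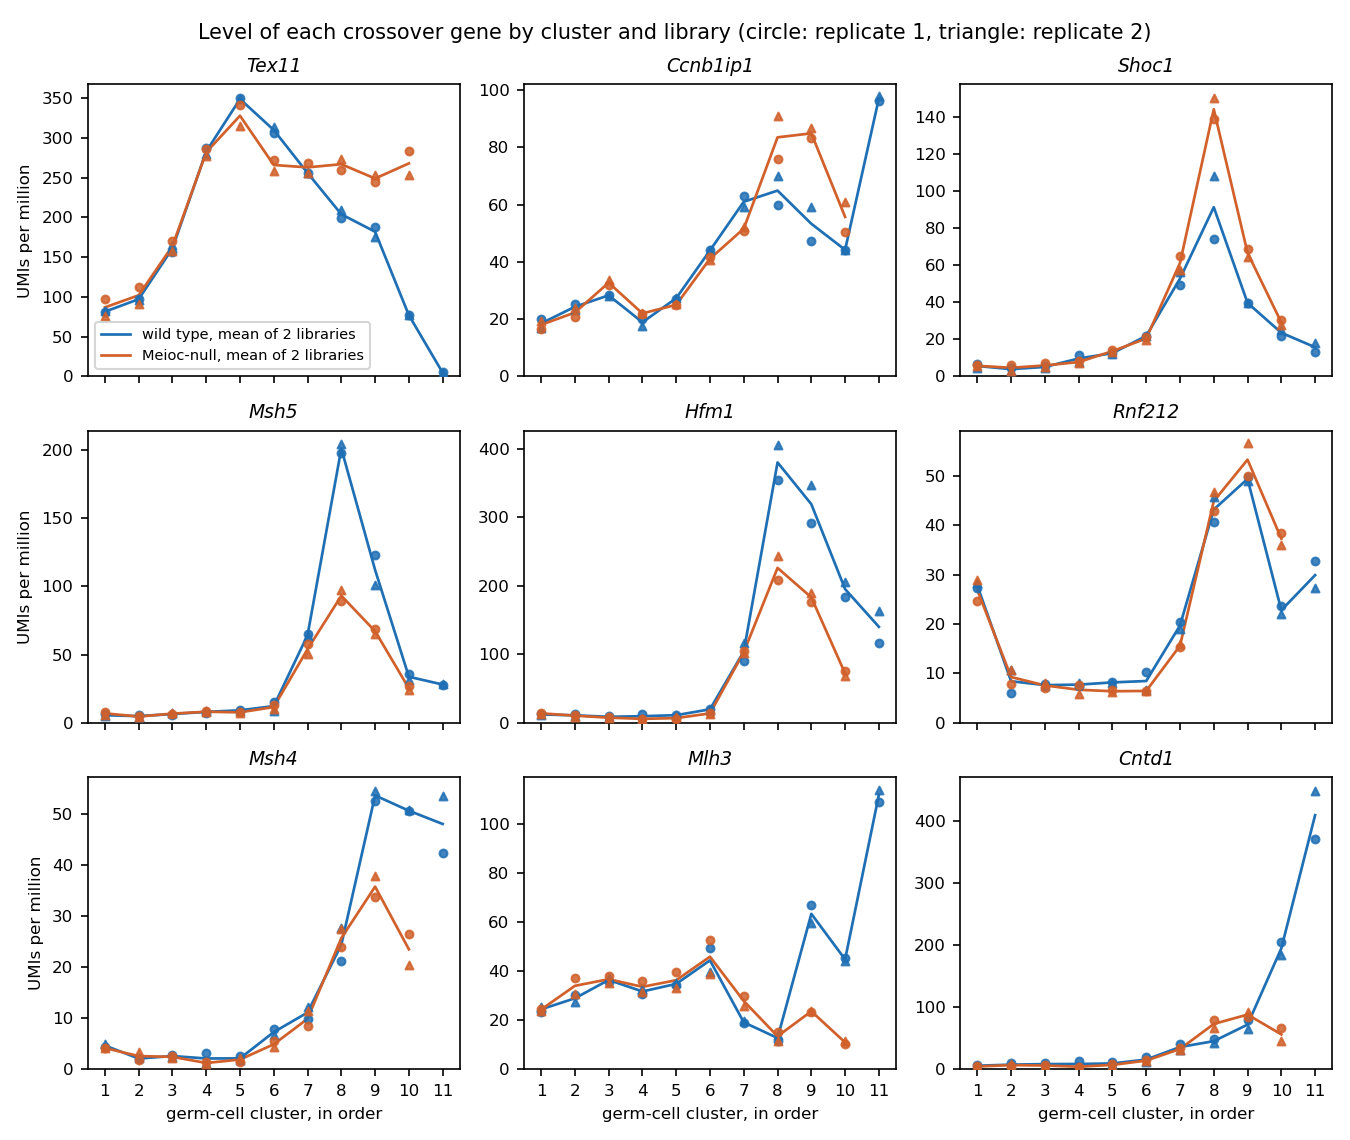
Level of each gene in UMIs per 1000000 (vertical axis from 0, a separate scale for each gene) across the 11 ordered germ-cell clusters, with 1 point per library (circle, replicate 1; triangle, replicate 2) and a line through the mean of each genotype. *Meioc*-null lines (orange) end at cluster 10, the last cluster with *Meioc*-null cells, and in cluster 10 they lie below wild type for *Msh5*, *Hfm1*, *Msh4*, *Mlh3* and *Cntd1* and above it for *Tex11*, *Rnf212*, *Shoc1* and *Ccnb1ip1*, the last 2 without a call.

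A direct test compared the genotype difference of cluster 10 with that of cluster 7, with a term for each mouse (edgeR interaction, all genes of both clusters). It was called for 6 of the 9 genes, against 38.9% of all 14613 genes tested. The difference moved toward wild type for *Mlh3* by 2.72 (SE 0.27, adjusted p = 5.74e-23), *Cntd1* by 1.89 (SE 0.16, adjusted p = 1.01e-30), *Hfm1* by 1.63 (SE 0.13, adjusted p = 2.50e-32) and *Msh4* by 1.18 (SE 0.26, adjusted p = 3.34e-05) on the log2 scale. It moved toward *Meioc*-null for *Tex11*, at -1.57 (SE 0.11, adjusted p = 8.66e-47), and for *Rnf212*, at -0.84 (SE 0.24, adjusted p = 0.00183). *Msh5* (0.34, adjusted p = 0.223) and *Shoc1* (0.10, adjusted p = 0.762) did not pass. *Ccnb1ip1* (-0.40, adjusted p = 0.0576) passed with DESeq2 size factors in edgeR (adjusted p = 0.00850), without wild-type replicate 2 (0.0446) and without *Meioc*-null replicate 1 (0.0361), and *Msh4* did not pass without *Meioc*-null replicate 2 (adjusted p = 0.107).

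In cluster 10 the cells of the 2 genotypes were not at the same place or of the same make-up. Along the line that joins the wild-type cluster centres, cells of cluster 10 had a median position of 117 in both wild-type libraries, while the wild-type neighbours of *Meioc*-null cells of cluster 10 had a median of 109 in both null libraries (cluster 9 centred at 99.4). In cluster 10 the *Stra8* level was 13.3 and 10.4 CPM in wild-type libraries against 314 and 289 CPM in null libraries, and *Plk1*, a mitotic kinase, at 22.1 and 18.0 CPM against 167 and 151 CPM. The 8 markers of pachytene spermatocytes summed to 929 and 813 CPM in wild type, with 7 of 8 counted in each library, and to 207 and 233 CPM in *Meioc*-null, with 6 and 7 counted. *Ccna1* was at 0 in all 4 libraries of this cluster, and *Spag6* in *Meioc*-null replicate 1. The 7 markers of differentiating spermatogonia, all counted in every library, summed to 229 and 212 CPM in wild type but to 1089 and 1002 CPM in the null, and in cluster 9 to 237 and 211 CPM but 666 and 612 CPM. The 8 early spermatocyte markers summed to 5377 and 4793 CPM in wild-type libraries against 5703 and 4964 CPM in null libraries, and the 6 Sertoli markers to 73.0 and 45.4 CPM and to 88.9 and 44.3 CPM. In earlier clusters the genotypes were apart as well. *Plk1* stood at 2.05 and 2.93 CPM in wild type against 41.4 and 34.7 CPM in null libraries in cluster 7. *Stra8* stood at 504 and 416 against 1560 and 1724 CPM in cluster 8, and at 48.2 and 46.0 against 800 and 743 CPM in cluster 9. The calls of clusters 7 to 9 thus do not compare cells of the same make-up either. The part these played in the differences was not tested.

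The comparison was therefore repeated with the wild-type level taken from the 30 wild-type cells nearest to each *Meioc*-null cell, an alternative chosen after seeing the data and given with no test. In cluster 10 the log2 difference became 1.82 for *Mlh3*, 1.58 for *Hfm1*, 0.94 for *Cntd1*, 0.65 for *Msh4*, 0.43 for *Msh5*, -0.61 for *Rnf212* and -0.94 for *Tex11*. *Mlh3*, *Hfm1*, *Msh5* and *Rnf212* thus kept most of their difference, whereas those of *Cntd1*, *Msh4* and *Tex11* were reduced by over 1.5 times. In cluster 7 the value for *Mlh3* was -0.32, also reduced by over 1.5 times. In cluster 8 the values were 0.85 for *Msh5*, 0.47 for *Hfm1*, -0.81 for *Shoc1* and -0.81 for *Cntd1*, so that *Hfm1* was reduced by over 1.5 times there as well. The nearest-cell values are of plain CPM with 1 added, without the normalisation of the edgeR values they are set against. On that plain scale all cells of cluster 8 gave -0.90 and -0.46 for *Shoc1* in the 2 batches. Of the 19 called differences of clusters 7 to 10, 10 moved by at least the standard error of the fitted difference and 9 by less, and 0 changed direction.

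**Figure D5:**
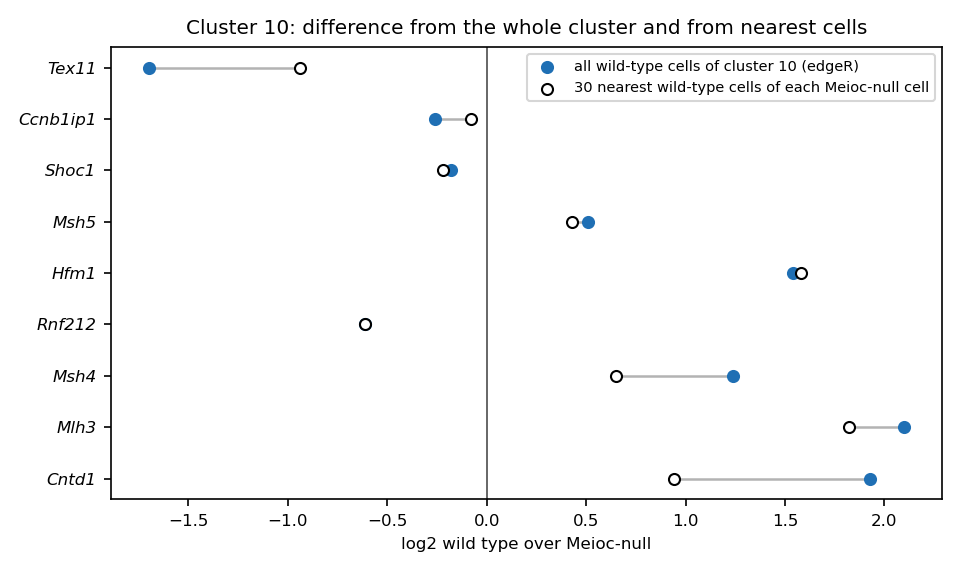
Log2 difference (wild type over *Meioc*-null) of each gene in cluster 10, from all wild-type cells of the cluster (filled, edgeR) and from the 30 nearest wild-type cells of each *Meioc*-null cell (open, CPM without the edgeR normalisation, mean of 2 null libraries). Both points are on the same side of 0 for every gene, and they are farthest apart for *Cntd1* (1.93 and 0.94) and *Tex11* (-1.70 and -0.94).

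Among related genes of the pathway, a list of 10 genes for nucleases and dissolution of joined molecules held calls in both directions, with 1, 2, 3 and 4 genes called in clusters 7, 8, 9 and 10. Among them *Fancm*, a helicase that limits crossovers, was called in 3 clusters and was higher in the null each time, at 57.8 and 59.3 CPM against 23.0 and 20.2 CPM in cluster 10 (log2 fold change -1.36, SE 0.18, adjusted p = 1.23e-07, edgeR). *Msh3*, a mismatch repair paralogue of the MutSγ genes, was called in 3 of these clusters and was higher in wild type, for example at 39.5 and 36.6 CPM against 19.8 and 14.6 CPM in cluster 9 (log2 fold change 1.17, SE 0.18, adjusted p = 1.71e-06, edgeR). The shares of all genes called in these clusters are those given above.

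Over the 22 sums of wild-type clusters and libraries, the genes with the course most like that of each crossover gene were found among 11220 genes by Pearson correlation of log2(CPM + 1), given as a description. Sums of 1 library share its depth and free RNA. *Msh5* was most like *Terb1* (r = 0.984), which encodes a protein that ties telomeres to the nuclear envelope in meiosis, and *Hfm1* was most like *Iqcb1* (r = 0.990). *Tex11* was most like *Ammecr1* (r = 0.992), *Shoc1* like *Gtpbp8* (r = 0.982), *Msh4* like *Vamp9* (r = 0.984) and *Cntd1* like *Fhl4* (r = 0.978). The closest courses to those of *Mlh3* (*Fzd6*, r = 0.921), *Rnf212* (*Ica1l*, r = 0.917) and *Ccnb1ip1* (*Bscl2*, r = 0.952) were less close, and no crossover gene was among the 2 genes most like another.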

How the data were processed

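Per the labels and the study's methods, 10x Genomics 3′ libraries (v3.1) were aligned and counted by the authors with Cell Ranger 4.0.0 against mm10 (GRCm38). The deposited matrices hold raw UMI counts per gene and barcode, with no later filter. Barcodes with over 1000 detected genes and under 10% mitochondrial UMIs were kept here, and doublets were removed by Scrublet rank (scanpy 1.11.5). At a set rate of 0.8% per 1000 barcodes this took 690 to 995 barcodes per library, whereas the caller's own threshold flagged 1.77% to 4.54%. Without this step the cluster matched to cluster 11 held 438 and 622 wild-type cells and 0 *Meioc*-null cells. Wild-type cells were clustered on 2000 variable genes, with 191 listed genes, the 9 crossover genes among them, kept out, and *Meioc*-null cells were placed by their 30 nearest wild-type cells. The study used another doublet score and its own clusters, so that cluster names rebuilt here may differ from its own. UMIs were summed per library and cluster and tested with edgeR 4.0.16 (TMM, robust quasi-likelihood test, at least 20 UMIs over 4 libraries, Benjamini-Hochberg within a cluster). DESeq2 1.42.0 was an alternative. Named were all 9 genes and, from the other lists, genes called in at least 3 clusters. An item of 2 related gene lists is not reported here, and the counts of those lists were left out. The members and lists were chosen with earlier results of these data known. Replicate numbers mark littermate pairs per the labels, and same-numbered libraries deviated together (r of 0.28 to 0.55 across genes, by cluster). In simulated counts for cluster 10 the test called 25.6% of genes changed 1.5-fold, 66.7% of genes changed 2-fold and 94.4% of genes changed 4-fold, and the interaction test 11.3%, 46.8% and 61.2%. In that cluster 10 simulation 78, 51 and 71 of 11634 genes were changed, whereas 50.7% were called in the real cluster. The shares are therefore not those of the real test. Positions and overlaps came from a GRCm38 annotation, and promoters from RefSeq.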

Additional observations from a re-analysis of the deposited data

Results flagged for a closer look

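The genotype difference in cluster 10 differed from that in cluster 7, by the edgeR interaction test, for 6 of the 9 crossover genes, against 38.9% of all genes tested, and for 5 without *Meioc*-null replicate 2, where *Msh4* did not pass. On the log2 scale the difference between the differences was 2.72 for *Mlh3*, 1.89 for *Cntd1*, 1.63 for *Hfm1* and 1.18 for *Msh4*, toward higher levels in wild type. It was -1.57 for *Tex11* and -0.84 for *Rnf212*, toward higher levels in *Meioc*-null. The fitted differences in clusters 7 and 10 were of opposite sign for *Mlh3* (-0.49 and 2.10), *Rnf212* (0.38 and -0.61) and *Tex11* (0.01 and -1.70), and of these the cluster 7 values of *Rnf212* and *Tex11* were not called. The *Meioc*-null cells of cluster 10 numbered 65 and 96, and their position along the order differed from that of wild-type cells of the cluster. What part these had in the differences was not tested.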

How the results depend on the processing

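Of 19 called differences of crossover genes in clusters 7 to 10, 7 were called under every alternative that gave a test (*Msh5* in cluster 8, *Mlh3* in cluster 9, and *Msh4*, *Hfm1*, *Mlh3*, *Cntd1* and *Tex11* in cluster 10), and 0 were reversed. DESeq2 kept 15, DESeq2 size factors in edgeR 18, no filter 18, no doublet removal 17, and Bonferroni adjustment over genes and clusters 7. Clusters 9 and 10 shared a fit without doublet removal, as did 8 and 9 with fewer clusters, so these alternatives give no separate support to each. The number of crossover genes called in cluster 7 was 1, but 0 by DESeq2 (8.27% of all genes called), 0 with Bonferroni adjustment (0.325%), 4 with the replicate block (26.2%), 4 (14.8%) when *Meioc*-null cells were placed without the called genes (an alternative chosen after seeing the data), and 0 to 1 when 1 library was left out (8.76% to 11.2%). The replicate block called 1 gene in cluster 6 in place of 0, and outside clusters 6 and 7 it changed the count by no more than 1.5 times. In cluster 8 the count of 4 became 1 with Bonferroni adjustment (1.39% of all genes), 8 with fewer clusters (34.5%), where 8 and 9 were merged into 1, and 2 when cells were placed without the called genes (31.0%). In cluster 9 the count of 7 became 1 with Bonferroni adjustment (8.63%). In cluster 4 the count was 0 to 1 when 1 library was left out, and *Cntd1* was the gene called without wild-type replicate 2 (0.529% of all genes). Without doublet removal *Cntd1* in cluster 9, not called before, reversed to 0.45. The causes of these changes were not tested. A mitochondrial limit of 5% left no cluster with 50 cells in every library and gave no value.

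The first cluster at 10% was the same at 20% for 5 of the 9 genes. At 5% it moved to cluster 1 for *Msh4*, 4 for *Shoc1* and 7 for *Cntd1*, and stayed the same for the other genes. The place at 50% was the same for 2 genes in bins along diffusion pseudotime, which did not follow the order of the clusters, and for 5 in bins along the line through the cluster centres, chosen after seeing the data. Along that line *Rnf212* first reached 50% in a bin mostly of cluster 8, *Msh5* of 7, *Ccnb1ip1* of 6 and *Cntd1* of 10. At 3000 UMIs per cell, 2.38 genes were detected in wild type and 2.22 in *Meioc*-null in cluster 8, and 1.69 and 1.45 in cluster 10. With 2 mice per genotype and few *Meioc*-null cells in cluster 10, a gene that did not pass is not shown to be alike.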
